A study of Rattus norvegicus with 6 samples.

Results

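The genes described here act in G2 and mitosis. They were chosen by name, from a list of 39 genes, with earlier results of these data known. Of the 39, 37 have a row in the deposited table, among 33300 genes in all. Ccnb2 and Cks2 are not analysed here. RNA sequencing was done on rat tendon stem/progenitor cells, which can form new tendon cells and which the labels also call mesenchymal stem cells under tenogenic differentiation. All 6 libraries come from cells cultured for 7 days in F12 medium. The 3 Control libraries had no addition, and the 3 NAC libraries had 500 uM N-acetyl-L-cysteine (NAC), a thiol antioxidant and cysteine source. Age, sex and strain of the animals are unstated in the labels, as is whether replicates were grown from different animals or cultures. A p-value here therefore measures the spread among these 6 libraries, which may be technical.

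Cells that divide make the proteins of G2 and mitosis in a burst. The kinase Cdk1, bound to cyclins A and B, drives the cell into mitosis, the aurora and polo kinases build the spindle, and a checkpoint at the kinetochores holds back the anaphase-promoting complex (APC/C), the ubiquitin ligase that ends mitosis. In cells that have left the cycle the DREAM complex keeps many of these genes silent, and in cycling cells the factors MYBL2 and FOXM1 activate them. DREAM and the activators act at a promoter element called the cell cycle genes homology region (CHR), often near CCAAT boxes, which bind the factor NF-Y. Their RNA is therefore a common marker of dividing cells in a tissue or culture. In bulk RNA, more cells in G2 and mitosis and more RNA per such cell cannot be told apart.

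Values are FPKM, fragments per kilobase of gene, scaled by the authors to the size of each library, and levels of different genes are compared only on this scale. Between 12487215 and 14941949 reads per library were worked back from the FPKM values. On a principal component analysis of all tested genes the Control and NAC libraries separated on the first component, and Control 2 stood apart on the second, at -21.8 against -4.23 to 10.3 for the others. Results are therefore also given without it. Among markers of the labelled cell type, all 10 tendon fibroblast genes had a mean of at least 1 FPKM, with summed levels of 9469 to 9843 FPKM in Control and 14137 to 14830 FPKM in NAC. The matrix genes Dcn (means of 4489 and 5620 FPKM) and Col1a1 (2731 and 5453 FPKM) made up most of the sum. Scx (12.5 and 11.6 FPKM), Mkx (5.28 and 3.90 FPKM) and Tnmd (1.41 and 2.55 FPKM) were far lower. Markers of endothelium summed to at most 0.769 FPKM in any library over 7 genes, with Cdh5, Emcn and Cldn5 at 0 throughout. The 8 leukocyte markers summed to 9.73 to 12.2 FPKM in Control and 8.36 to 10.9 FPKM in NAC. Of these, Ptprc and Cd3e were at 0 in all 6 libraries, and Cd68 (means of 5.18 and 4.33 FPKM) and Lyz2 (5.59 and 5.27 FPKM) made up most of the sum. The 8 pericyte and smooth muscle markers summed to 418 to 514 FPKM in Control and 317 to 385 FPKM in NAC, mostly Acta2 (means of 366 and 278 FPKM). The part of these lists in the results below was not tested. The 6 Schwann and neural markers summed to 47.1 to 55.1 FPKM in Control and 47.8 to 53.2 FPKM in NAC, nearly all of it S100b, with Sox10 at 0. The 6 skeletal muscle markers summed to 4.01 to 5.15 and 4.17 to 5.50 FPKM, mostly Acta1, with Pax7 at 0. The 6 cartilage markers summed to 11.9 to 15.6 and 12.5 to 13.9 FPKM, with Sox9, Acan and Comp above 1 FPKM on average and Matn1 at 0.

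All 37 G2 and mitosis genes were higher with NAC in the sense that each of the 3 NAC values lay above each of the 3 Control values. Such separation was seen in 16.7% of the 12733 genes tested. As the members were chosen with earlier results known, such shares here and below describe the list and are no test of it. The 37 genes together took 266.9, 302.9 and 329.4 RPM (reads scaled to the library total) in Control 1, 2 and 3, and 441, 424 and 456 in NAC 1, 2 and 3. The mean went from 299.7 ± 31.4 to 440.5 ± 15.7 RPM (SD, n = 3 each), a ratio of 1.47, and the summed FPKM from 99.7 ± 9.81 to 164.9 ± 4.16, a ratio of 1.65. The ratios differ because the authors divided by totals that were not the sum of the reads: the reads came to 0.959 to 0.981 of the divisor in Control and 1.08 to 1.10 in NAC. Scaled to library totals instead, 27 of the 37 genes had every NAC value above every Control value, as did 5.73% of all tested genes.

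**Figure D1:**
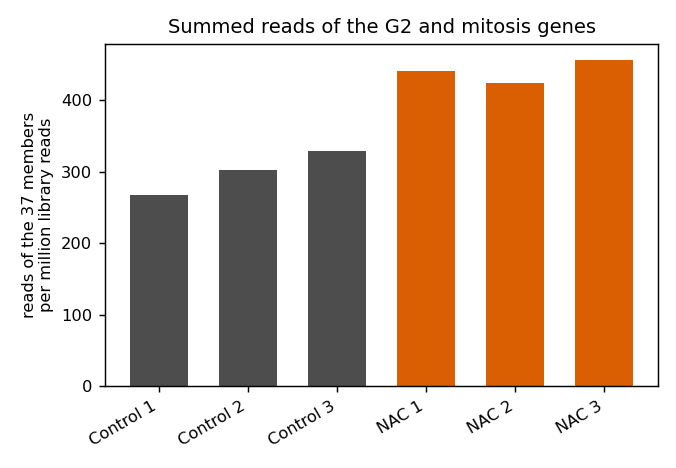
Summed level of the 37 G2 and mitosis genes in RPM (reads scaled to the library total), 1 bar per library (Control grey, NAC orange). The 3 NAC libraries lie between 424 and 456, and the 3 Control libraries between 266.9 and 329.4.

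Each gene was tested with limma on log2(FPKM + 1), a scale on which the fold change of genes near 1 FPKM is understated, and was called when its adjusted p over all tested genes was under 0.05. Values below are in the order of libraries 1, 2 and 3 of each group. By that rule 18 of the 35 tested members rose with NAC (51.4%) and none fell, where 6.08% of all tested genes rose and 2.72% fell. At an unadjusted p under 0.05 the limma count was 33 of the 35. The share of all tested genes at that threshold was not worked out, so this count has no background to be read against. A limma voom test on the recovered reads called 27 of the 35 higher, among them all 18, and none lower, where it called 8.13% of all tested genes higher and 4.15% lower. The voom test took the authors' divisors as library sizes, so it shared their scaling. The other 2 members, Aspm and Kif4a, had a mean under 1 FPKM and were not tested. Of the 35, 4 (Bub1b, Cenpe, Racgap1 and Ttk) had a Control mean under 1 FPKM and entered through their NAC values. Of these only Bub1b was among the 18 called by limma. The voom count of 27 held all 4, and with library totals Bub1b and Racgap1 were called. Calls of these 4 genes are no support for the list. The median log2 fold change of the tested members was 0.55, against -0.0063 over all tested genes. With library totals these medians were 0.42 and -0.16, so the whole table lay lower, and 20 members were called higher, where 3.67% of all tested genes were called higher and 29.2% lower. Each of the 35 fold changes was above 0 as deposited, with library totals (lowest 0.0017, in Ckap2) and with quantile normalization, which called 17 members higher (4.45% of all tested genes). Fewer members were called when 1 library was left out: 16 without Control 2 (6.75% of all tested genes), 10 without Control 3 (2.84%), 7 without NAC 3 (3.58%), 6 without Control 1 (2.98%), 6 without NAC 2 (2.07%) and 4 without NAC 1 (2.31%). Cdca3, Cdk1, Prc1 and Top2a were called in each of these 6 fits. With no filter on low values only Prc1, of 37 tested, was called (0.706% of 33300 genes). With a mean of at least 5 FPKM 7 of 9 tested members were called (8.88% of 8783 genes). The count was 18 with a pseudocount of 0.1 (6.01%), 20 without a trend in the variance (4.31%), and 10 higher and none lower with the replicate number as a block (3.66% and 0.864%).

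**Figure D2:**
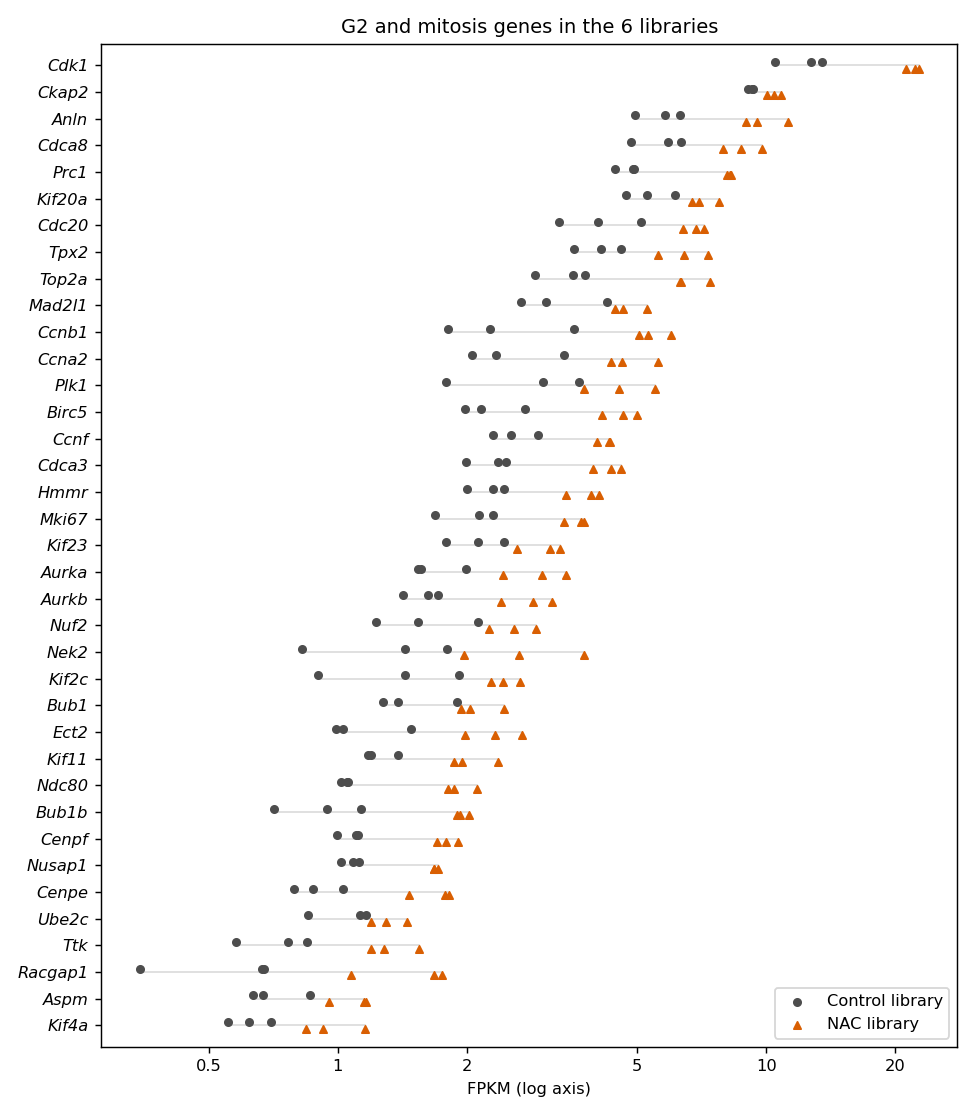
FPKM of each of the 37 genes in each library on a log axis (Control grey circles, NAC orange triangles), ordered by mean level. In every row the 3 triangles lie to the right of the 3 circles; Cdk1 is the most abundant member and Kif4a the least.

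Promoter letters were not used to choose the members. RefSeq promoter windows of 300 bases on GRCr8 (250 before to 50 after the gene start) were found for 32 of the 37, and not for Aurkb, Ccna2, Racgap1, Tpx2 and Ube2c. The CHR letters TTTGAA, searched on both strands, were present in 23 of the 32 windows (71.9%), against 18.3% of all 33469 windows in the table and 12.0% of the windows of tested genes. The letters CCAAT on either strand were present in 24 (75.0%), against 37.5% of all windows, and both motifs in 18 (56.2%), against 7.41%. A CHR and a CCAAT match can share letters, and in the Cdca8 and Mki67 windows the end of a CHR match and the start of a CCAAT match shared 1 base. In 22 of the 32 a CHR match lay between 100 bases before and 50 bases after the start, against 8.21% of all windows, and 24 of the 28 CHR matches in members had the forward orientation. Among the members called higher 13 of 15 windows held the CHR letters, and among those tested and not called 8 of 15. The shares describe these windows only. A match is not a measured binding site, and variants of these letters were not searched.

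Shown are the 4 called members of lowest adjusted p whose window held the CHR letters TTTGAA, and Ccnb1, a called member without these letters. Only these exact letters and their complement were searched, so a window without them is not shown to lack a CHR. The stretches run from 100 bases before to 20 after the start, 5′ to 3′ on the gene's strand. CHR and CCAAT letters (or their complement, TTCAAA and ATTGG) are in capitals.
Prc1, chr1:143659381-143659500, forward strand: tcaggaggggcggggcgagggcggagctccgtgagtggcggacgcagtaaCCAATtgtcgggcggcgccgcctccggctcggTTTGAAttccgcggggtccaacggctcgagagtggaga
Cdk1, chr20:19265193-19265312, forward strand: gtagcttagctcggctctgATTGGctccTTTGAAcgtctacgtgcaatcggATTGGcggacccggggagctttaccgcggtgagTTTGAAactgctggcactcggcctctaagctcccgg
Top2a, chr10:84473074-84473193, reverse strand: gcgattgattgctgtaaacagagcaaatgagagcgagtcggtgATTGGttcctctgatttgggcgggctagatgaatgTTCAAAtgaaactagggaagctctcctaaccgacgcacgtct
Birc5, chr10:103572046-103572165, forward strand: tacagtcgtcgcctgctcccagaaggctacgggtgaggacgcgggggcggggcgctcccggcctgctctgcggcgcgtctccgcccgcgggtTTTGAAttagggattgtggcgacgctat
Ccnb1, chr2:33655206-33655325, reverse strand: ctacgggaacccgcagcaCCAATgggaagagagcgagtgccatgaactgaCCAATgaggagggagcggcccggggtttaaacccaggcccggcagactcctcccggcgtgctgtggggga
In Prc1, Cdk1 and Birc5 the CHR match closest to the start began 18, 16 and 8 bases before it. Top2a had it on the other strand, 22 bases before the start. In Prc1, Cdk1 and Top2a a CCAAT match lay just upstream, 50, 49 and 57 bases before the start, and in Birc5 the nearest lay 213 bases before it, outside the stretch shown. The Ccnb1 stretch held a pair of CCAAT matches, 82 and 50 bases before the start.

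**Figure D3:**
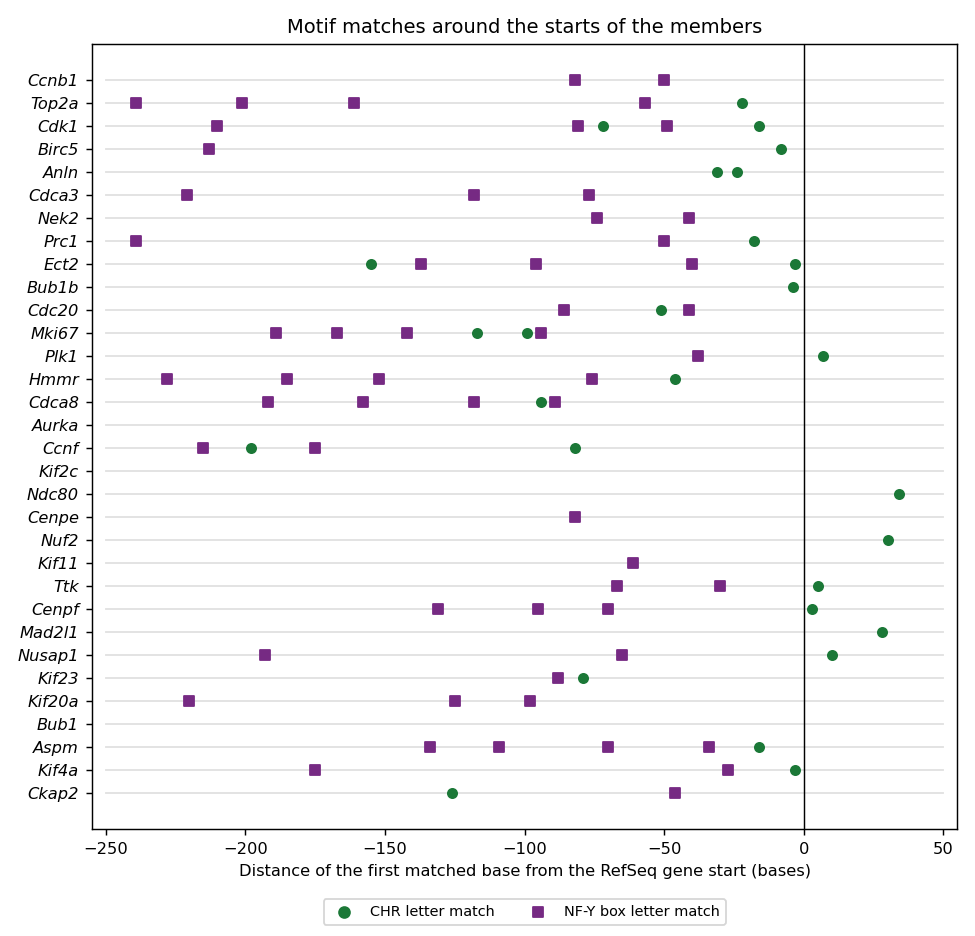
Positions of CHR matches (green circles) and of CCAAT matches, labelled NF-Y boxes (purple squares), in the windows of 32 members, from 250 bases before to 50 after the RefSeq gene start, ordered from the smallest log2 fold change (bottom) to the largest (top). CHR matches gather near the start. The windows of Aurka, Bub1 and Kif2c held no match to either set of letters.

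Cdk1 and its cyclins rose. Cdk1 (ENSRNOG00000000632; chromosome 20, bases 20576377 to 20591549 on the forward strand in the deposited table, whose build is not stated in it), the kinase that starts mitosis, was the most abundant member in every library, at 10.5, 12.7 and 13.5 FPKM in Control and 22.6, 21.1 and 22.2 FPKM in NAC. The groups were far apart, with the highest Control value well below the lowest NAC value. Its mean went from 12.2 ± 1.54 to 22.0 ± 0.785 FPKM (SD, n = 3), a ratio of 1.80 (log2 fold change 0.80 ± 0.0891 SE, limma adjusted p = 0.00391). Ccnb1, cyclin B1, which activates Cdk1 for mitosis, stood at 2.26, 1.81 and 3.56 FPKM in Control and 5.04, 6.003 and 5.29 FPKM in NAC. On the log2(FPKM + 1) scale this was the largest fold change among the tested members (log2 fold change 0.89 ± 0.179 SE, limma adjusted p = 0.0310), with the widest Control spread of the cyclins. The rank depends on the scale: Racgap1 moved further with a pseudocount of 0.1 (1.29 against 1.12) and with voom (1.42 against 1.12). The Ccnb1 call ended without Control 1, NAC 1, NAC 2 or NAC 3 (0.83 to 0.93). Ccna2, cyclin A2, which pairs with Cdk2 and Cdk1 from S phase into G2, stood at 2.34, 2.06 and 3.37 FPKM in Control and 4.33, 4.61 and 5.58 FPKM in NAC (log2 fold change 0.71 ± 0.154 SE, limma adjusted p = 0.0381). Control 3 was the highest Control library in all 3 genes. The Ccna2 call ended when any library but Control 3 was left out (0.61 to 0.78) and without a trend in the variance (limma adjusted p = 0.0544). Ccna2 lies over 6334 bases opposite Exosc9, whose mean was 14.1 ± 1.27 FPKM in Control and 12.6 ± 1.07 FPKM in NAC (SD, n = 3, not called by limma, adjusted p = 0.286). Whether the counting used strand is not known from these sources, and without it the reads of both genes cannot be told apart.

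Ccnf, cyclin F, is not a partner of Cdk1 but the substrate receptor of a ubiquitin ligase. It stood at 2.30, 2.94 and 2.53 FPKM in Control and 4.02, 4.31 and 4.29 FPKM in NAC and rose (log2 fold change 0.54 ± 0.0933 SE, limma adjusted p = 0.0192), a call that ended when any library but Control 2 was left out (0.48 to 0.57). Cdca3, a trigger of mitotic entry that promotes the loss of the Cdk1 inhibitor Wee1, stood at 1.996, 2.37 and 2.47 FPKM in Control and 4.34, 3.95 and 4.57 FPKM in NAC. It rose (log2 fold change 0.69 ± 0.0961 SE, limma adjusted p = 0.00977), with no overlap and similar spread in both groups, and kept its call without any 1 library. All 5 measured genes of this group were thus called, with ratios of means from 1.62 to 2.14. Over all tested genes 6.08% were called higher.

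The mitotic kinases Plk1, Aurka and Nek2 had higher means with NAC and none passed the test. Plk1, the polo kinase of spindle assembly and mitotic exit, stood at 1.79, 3.65 and 3.02 FPKM in Control and 4.54, 3.75 and 5.50 FPKM in NAC. Control 2 and NAC 2 lay close to each other, and the adjusted p was 0.141 (limma; log2 fold change 0.57). Aurka, the aurora kinase of the spindle poles, stood at 1.54, 1.57 and 1.99 FPKM in Control and 3.40, 2.43 and 2.996 FPKM in NAC. It came nearest to the threshold of all members not called (log2 fold change 0.54 ± 0.131 SE, limma adjusted p = 0.0511). Both voom and scaling to library totals put it past the threshold (0.42 with totals, limma adjusted p = 0.0495, within 0.0256 to 0.203 over all settings). Nek2, a kinase of centrosome separation, stood at 1.80, 0.826 and 1.43 FPKM in Control and 2.65, 3.76 and 1.97 FPKM in NAC. The lowest and highest NAC values lay further apart than the group means, 1.35 FPKM in Control and 2.79 FPKM in NAC. Nek2 did not pass (log2 fold change 0.68 ± 0.225 SE, limma adjusted p = 0.112), and between 14 and 68 reads lay behind each library's value.

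The chromosomal passenger complex, which corrects faulty attachments of chromosomes to the spindle and later sits at the midzone, had 3 members here, and all 3 rose. The share that rose over all tested genes was 6.08%. Birc5, survivin, stood at 2.16, 1.98 and 2.73 FPKM in Control and 4.64, 4.13 and 5.0004 FPKM in NAC, a ratio of 2.003 (log2 fold change 0.77 ± 0.115 SE, limma adjusted p = 0.0124), and lost its call only without NAC 1 (0.76). Its counts were low, 22 to 55 reads per library, over a length of 873 bases. Cdca8, borealin, stood at 4.84, 5.90 and 6.33 FPKM in Control and 7.91, 8.73 and 9.78 FPKM in NAC (log2 fold change 0.55 ± 0.110 SE, limma adjusted p = 0.0299). Aurkb, the aurora kinase of the complex, stood at 1.42, 1.71 and 1.62 FPKM in Control and 2.86, 2.41 and 3.15 FPKM in NAC (log2 fold change 0.56 ± 0.115 SE, limma adjusted p = 0.0336). Both calls ended when any library but Control 2 was left out (0.46 to 0.62 for Cdca8 and 0.49 to 0.63 for Aurkb). On the FPKM scale Cdca8 was the most abundant of the 3 and Aurkb the least in every Control library. The length used for Aurkb is 4404 bases and that for Cdca8 1517 bases, and the level per kilobase depends on it. Incenp, the scaffold of the complex (not a member, and picked with its value known), had a Control mean of 4.30 ± 0.579 FPKM and a NAC mean of 5.31 ± 0.534 FPKM (SD, n = 3, not past the threshold by limma, adjusted p = 0.196).

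In the spindle checkpoint, which delays anaphase until all chromosomes are attached, 1 of 4 genes rose (6.08% of all tested genes). That gene, Bub1b, and Ttk had Control means under 1 FPKM and were tested only because of their NAC values, so the count is no support for the group. Bub1b, BubR1, stood at 0.712, 0.943 and 1.14 FPKM in Control and 1.89, 1.93 and 2.02 FPKM in NAC, with a ratio of 2.10. It rose (log2 fold change 0.62 ± 0.129 SE, limma adjusted p = 0.0341), and the call ended whichever library was left out (0.53 to 0.69). Ttk, the kinase Mps1 that starts the checkpoint signal, stood at 0.580, 0.766 and 0.846 FPKM in Control and 1.28, 1.20 and 1.55 FPKM in NAC (log2 fold change 0.44 ± 0.140 SE, limma adjusted p = 0.105). Ttk passed with voom and without a trend in the variance (limma adjusted p of 0.0275 to 0.271 over all settings). Mad2l1, which encodes the APC/C inhibitor Mad2, stood at 3.06, 4.25 and 2.68 FPKM in Control and 4.45, 5.27 and 4.63 FPKM in NAC. Its Control 2 value came near the lowest NAC value, and it was called only without that library among the settings (0.58, against 0.43 with all 6, where the limma adjusted p was 0.112; over all settings it ran from 0.0273 to 0.408). Bub1, the kinetochore kinase, stood at 1.28, 1.38 and 1.90 FPKM in Control and 2.03, 2.44 and 1.94 FPKM in NAC, with Control 3 just under NAC 3 (log2 fold change 0.32 ± 0.136 SE, limma adjusted p = 0.191).

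Of the APC/C activators, Cdc20, its mitotic co-activator and the target of the checkpoint, rose. It stood at 4.05, 3.28 and 5.11 FPKM in Control and 7.14, 6.84 and 6.40 FPKM in NAC (log2 fold change 0.61 ± 0.131 SE, limma adjusted p = 0.0366), and the call ended without Control 1, NAC 1, NAC 2 or NAC 3 (0.58 to 0.65) and without a trend in the variance (adjusted p = 0.0555). Ube2c, the ubiquitin-conjugating enzyme that works with the APC/C, stood at 0.853, 1.17 and 1.13 FPKM in Control and 1.19, 1.30 and 1.45 FPKM in NAC. The groups lay close to touching, and the adjusted p was 0.440 (limma; log2 fold change 0.18). Only Ckap2 had a smaller ratio among the members.

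At the kinetochore, where spindle fibres bind the chromosome, Ndc80 alone passed. Ndc80, which binds the microtubule directly, stood at 1.02, 1.05 and 1.05 FPKM in Control and 1.87, 1.80 and 2.11 FPKM in NAC. The Control values were nearly equal, and the ratio was 1.85 (log2 fold change 0.52 ± 0.110 SE, limma adjusted p = 0.0362), though leaving out any 1 library ended the call (0.47 to 0.55). Nuf2, its partner in the same complex, stood at 1.54, 2.12 and 1.23 FPKM in Control and 2.57, 2.26 and 2.90 FPKM in NAC, with a Control 2 value near the lowest NAC value (log2 fold change 0.45 ± 0.152 SE, limma adjusted p = 0.116). Cenpe, a kinesin-like motor of the kinetochore, stood at 0.791, 0.876 and 1.03 FPKM in Control and 1.47, 1.82 and 1.78 FPKM in NAC (log2 fold change 0.50 ± 0.127 SE, limma adjusted p = 0.0578). Cenpf, a large kinetochore and nuclear matrix protein, stood at 0.995, 1.12 and 1.10 FPKM in Control and 1.91, 1.79 and 1.70 FPKM in NAC (log2 fold change 0.43 ± 0.110 SE, limma adjusted p = 0.0582). Cenpe and Cenpf were called by voom and without a trend in the variance. The remaining pair of the Ndc80 complex, Spc24 and Spc25 (Spc25 picked with its value known), are not members, and both rose. Spc24 had means of 3.99 ± 0.970 FPKM in Control and 7.76 ± 0.670 FPKM in NAC, and Spc25 of 1.42 ± 0.307 and 2.73 ± 0.299 FPKM (SD over 3 libraries). The Spc24 call ended without NAC 1, NAC 2 or NAC 3 (0.76 to 0.87), and the Spc25 call whichever library was left out.

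None of the 4 tested kinesins, motors that move and shorten microtubules, passed the test, and voom called 3 of them, Kif11, Kif20a and Kif2c. Kif11, which pushes the spindle poles apart, stood at 1.20, 1.18 and 1.38 FPKM in Control and 2.37, 1.87 and 1.95 FPKM in NAC (log2 fold change 0.44 ± 0.118 SE, limma adjusted p = 0.0681), and passed without a trend in the variance (adjusted p = 0.0358, within 0.0123 to 0.2201 over all settings). Kif23, of the centralspindlin complex, stood at 1.79, 2.45 and 2.12 FPKM in Control and 3.13, 3.30 and 2.62 FPKM in NAC (log2 fold change 0.36 ± 0.120 SE, limma adjusted p = 0.113). Kif2c, which takes microtubules apart at the kinetochore, stood at 0.901, 1.92 and 1.43 FPKM in Control and 2.66, 2.28 and 2.44 FPKM in NAC. Control 1 lay lowest by a wide margin. It also passed without Control 2 (0.68, against 0.54 with all 6, where the limma adjusted p was 0.102; over all settings it ran from 0.0378 to 0.381). Kif20a, a motor of the midzone, stood at 5.27, 4.71 and 6.11 FPKM in Control and 6.98, 6.70 and 7.74 FPKM in NAC (log2 fold change 0.36 ± 0.0982 SE, limma adjusted p = 0.0718). It overlaps the APC/C gene Cdc23 on the other strand by 1910 bases, and the means of Cdc23 were 19.4 ± 0.298 FPKM without and 19.99 ± 0.262 FPKM with NAC (SD, n = 3, not called by limma, adjusted p = 0.539). Kif4a, a motor of chromosome arms and midzone, was under the filter, at 0.554, 0.6995 and 0.621 FPKM in Control and 1.16, 0.843 and 0.926 FPKM in NAC. Ratios of means over the 5 kinesins ran from 1.33 to 1.73.

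Among the genes of spindle and midzone 3 of 5 tested members rose, where 6.08% of all tested genes rose. Prc1, which bundles the microtubules of the midzone, had the lowest adjusted p of all members. It stood at 4.44, 4.91 and 4.89 FPKM in Control and 8.25, 8.09 and 8.27 FPKM in NAC, with hardly any spread within either group (log2 fold change 0.68 ± 0.0618 SE, limma adjusted p = 0.00217), and was also the only member called when no filter on low values was used (limma adjusted p = 0.0118). Hmmr, a spindle protein also known as a hyaluronan receptor, stood at 2.004, 2.44 and 2.30 FPKM in Control and 3.90, 4.06 and 3.41 FPKM in NAC (log2 fold change 0.56 ± 0.0990 SE, limma adjusted p = 0.0203). Tpx2, which activates aurora A on the spindle, stood at 3.56, 4.59 and 4.10 FPKM in Control and 5.58, 6.43 and 7.32 FPKM in NAC (log2 fold change 0.55 ± 0.115 SE, limma adjusted p = 0.0349). The Hmmr call ended without Control 1, Control 3, NAC 1 or NAC 2 (0.50 to 0.57), and the Tpx2 call without any library but Control 2 (0.46 to 0.63) and, narrowly, without a trend in the variance. Nusap1, which bundles spindle microtubules around chromosomes, stood at 1.02, 1.12 and 1.09 FPKM in Control and 1.68, 1.68 and 1.72 FPKM in NAC. The NAC values agreed closely, yet the gene did not pass (log2 fold change 0.38 ± 0.108 SE, limma adjusted p = 0.0819). It did with voom and without a trend in the variance (limma adjusted p of 0.0124 to 0.216 over all settings). Aspm, a spindle pole protein, was under the filter, at 0.635, 0.670 and 0.862 FPKM in Control and 1.15, 0.953 and 1.17 FPKM in NAC. Ckap2, a microtubule protein of the spindle, was the second most abundant member in Control and moved least, at 9.06, 9.31 and 9.25 FPKM in Control and 10.8, 10.4 and 10.03 FPKM in NAC. Its ratio of means was 1.13 (log2 fold change 0.16 ± 0.0514 SE, limma adjusted p = 0.106).

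Of the genes of cytokinesis, which splits the cell after anaphase, Anln and Ect2 rose. Anln, anillin, the scaffold of the contractile ring, stood at 4.93, 5.79 and 6.28 FPKM in Control and 9.51, 8.95 and 11.2 FPKM in NAC (log2 fold change 0.71 ± 0.108 SE, limma adjusted p = 0.0130), and its call ended only without NAC 1 (0.73). A copy listed as Anlnl1 had the same direction, with means of 1.65 ± 0.253 FPKM in Control and 3.17 ± 0.105 FPKM in NAC (SD over n = 3, called by limma at an adjusted p of 0.0143 and picked with its value known), and its call held in 1 of the 6 fits that left out a library. How reads were divided between the copies is unstated, which leaves the level of each uncertain. Ect2, which activates RhoA at the cleavage site, stood at 0.989, 1.03 and 1.48 FPKM in Control and 2.70, 2.33 and 1.98 FPKM in NAC. The ratio was 2.002 (log2 fold change 0.62 ± 0.143 SE, limma adjusted p = 0.0441), a call that ended when any 1 library was left out (0.55 to 0.73) and under quantile normalization (0.59, with a limma adjusted p of 0.0555 within 0.00868 to 0.194 over all settings). Racgap1, the partner of Kif23 in centralspindlin, stood at 0.346, 0.667 and 0.672 FPKM in Control and 1.08, 1.68 and 1.75 FPKM in NAC. Its ratio, 2.67, was the highest of all members, from 14 to 67 reads per library, and it did not pass (log2 fold change 0.68 ± 0.177 SE, limma adjusted p = 0.0637). It did with voom and with library totals (0.59, with a limma adjusted p of 0.0429 within 0.0201 to 0.233 over all settings).

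Top2a and Mki67, proteins of the chromosomes themselves, rose. Top2a, topoisomerase II alpha, which untangles sister chromatids, stood at 2.88, 3.54 and 3.77 FPKM in Control and 7.40, 6.32 and 6.29 FPKM in NAC. Its lowest NAC value was far above its highest Control value, with a ratio of 1.96 (log2 fold change 0.80 ± 0.105 SE, limma adjusted p = 0.00758). Mki67, the proliferation marker Ki-67, which coats mitotic chromosomes, stood at 1.68, 2.14 and 2.30 FPKM in Control and 3.75, 3.37 and 3.69 FPKM in NAC. The lowest NAC value exceeded the highest Control value, with a ratio of 1.76 (log2 fold change 0.60 ± 0.108 SE, limma adjusted p = 0.0214), and the call ended without Control 1, NAC 1, NAC 2 or NAC 3 (0.51 to 0.64). The length used is 9880 bases, and 229 to 503 reads lay behind each value.

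**Figure D4:**
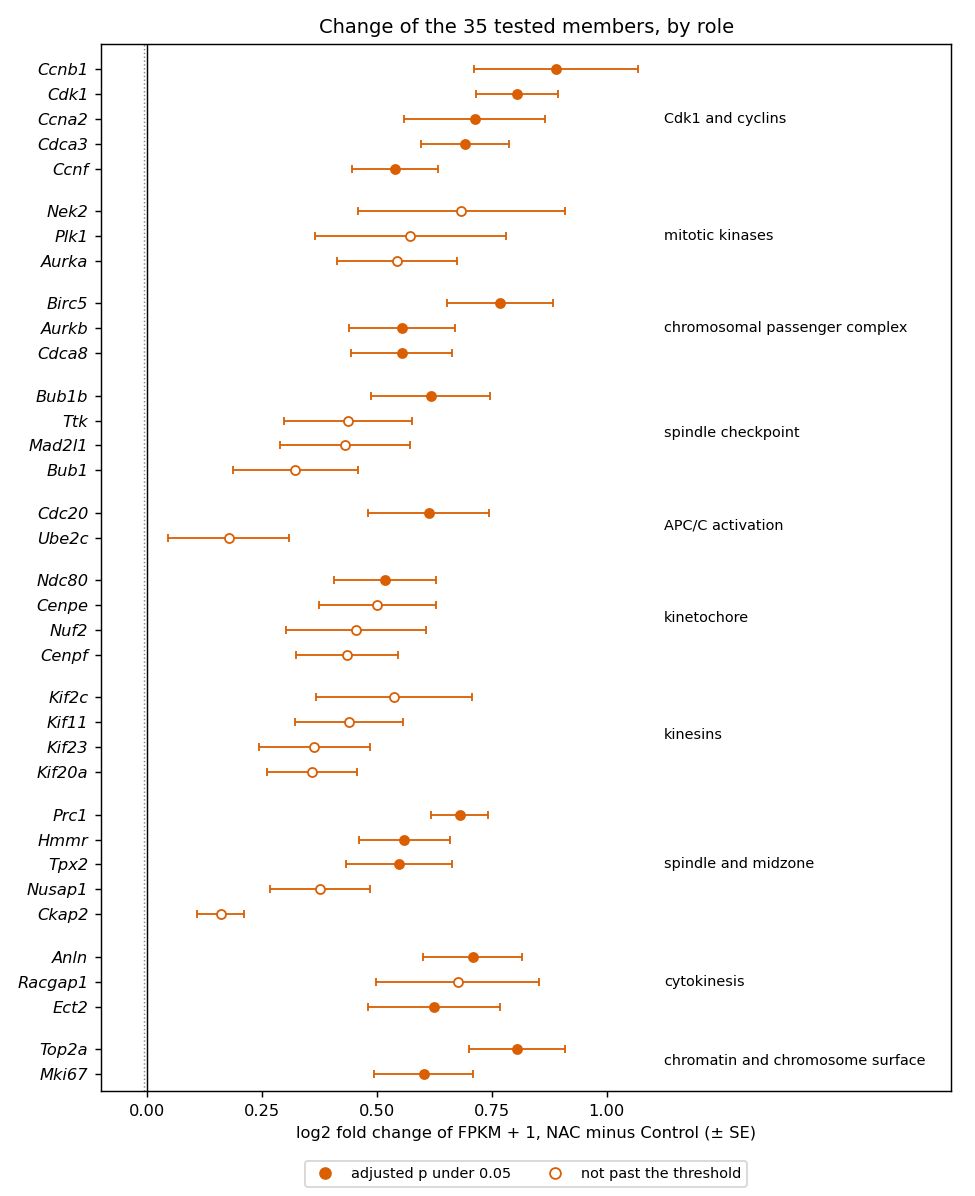
Log2 fold change of FPKM + 1 (NAC minus Control, bars ± SE) of the 35 tested members, grouped by role; filled points have an adjusted p under 0.05 and the dotted line is the median of all tested genes. All points lie to the right of 0, from 0.16 for Ckap2 to 0.89 for Ccnb1.

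The members differed in how far they moved more than in direction. Ratios of means ran from 1.13 in Ckap2 to 2.67 in Racgap1, with a median of 1.73 against 0.995 over all tested genes. A ratio of 1.5 was reached by 31 of 37. Ratios of at least 2 were seen in 6 genes, Birc5, Bub1b, Ccnb1, Ect2, Nek2 and Racgap1. The shares of all tested genes at ratios of 1.5 and 2 were not worked out. Most members were low: 28 of 37 had a mean under 5 FPKM. Their spread within groups was wider than that of all tested genes. The median coefficient of variation was 15.0% in Control and 9.88% in NAC, against 7.34% and 6.57% over all tested genes. The median Control level was 2.04 FPKM for the members and 9.83 FPKM over all tested genes, and the part of level in the spread was not tested. Control 1 was the lowest Control library in 28 of the 37 (75.7%), where it was the lowest in 31.3% of all tested genes. Control 3 was the highest Control library in 20 and Control 2 in 16. Among the NAC libraries NAC 3 was the highest in 18 and NAC 2 the lowest in 18. For the highest Control library and for the NAC libraries the share over all tested genes was not worked out.

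Other genes of G2 and mitosis were taken from 6 lists, 142 genes of which 138 had a row and 119 were tested. These lists too were chosen with earlier results of these data known. Of these 21 rose and 3 fell (background 6.08% and 2.72%), with a median log2 fold change of 0.15. With library totals 19 rose and 17 fell (background 3.67% and 29.2%). In the list of spindle assembly, further kinesins and cytokinesis 11 of 25 rose and none fell (median 0.44). Kifc1, a minus-end kinesin, rose from 2.61 ± 0.350 FPKM to 5.12 ± 0.484 (SD over 3 libraries; log2 fold change 0.76 ± 0.105 SE, limma adjusted p = 0.00961), while Tacc3, a spindle protein, rose from 3.03 ± 0.513 to 5.42 ± 0.204 FPKM, Kif22, a motor of chromosome arms, from 3.78 ± 0.294 to 6.27 ± 0.775 FPKM, and the tubulin Tubb4b from 52.8 ± 3.65 to 67.2 ± 2.95 FPKM. Tubb4b lost its call with library totals (0.17). Gtse1, which stabilises microtubules and holds back p53 in G2, had a lower mean with NAC, 7.84 ± 0.744 and 5.75 ± 0.856 FPKM, and did not pass (log2 fold change -0.39 ± 0.109 SE, limma adjusted p = 0.0740, picked with its value known). In the kinetochore and checkpoint list 5 of 32 rose and none fell (median 0.25), among them Cenpm (1.46 ± 0.305 to 3.06 ± 0.312 FPKM), Zwilch (3.36 ± 0.279 to 5.04 ± 0.339 FPKM) and Kntc1 (1.22 ± 0.154 to 2.46 ± 0.264 FPKM). Kntc1 and Zwilch belong to the same complex, which brings dynein to the kinetochore. Its other subunit, Zw10, had means of 7.99 ± 0.345 FPKM in Control and 7.75 ± 0.589 FPKM in NAC and did not pass (log2 fold change -0.04 ± 0.0695 SE, limma adjusted p = 0.756, picked with its value known). Leaving out 1 library ended the calls of Kifc1 (without NAC 2, 0.74), Tacc3 (without Control 1, NAC 1 or NAC 2, 0.65 to 0.68), Kif22 (without Control 1, NAC 1 or NAC 3, 0.53 to 0.58), Tubb4b (without any but Control 2 or Control 3, 0.30 to 0.38), Zwilch (without Control 1, Control 3, NAC 1 or NAC 2, 0.42 to 0.50), and Cenpm and Kntc1 (without any but Control 2, 0.66 to 0.79 and 0.58 to 0.68).

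In the cohesin, separase and condensin list 4 of 18 rose and none fell (median 0.027), where 6.08% of all tested genes rose and 2.72% fell. The genes that rose were Pttg1, securin, which holds separase inactive (3.43 ± 0.191 to 5.73 ± 0.158 FPKM, SD over 3 libraries; log2 fold change 0.60 ± 0.0693 SE, limma adjusted p = 0.00458), and the condensin genes Ncaph (1.31 ± 0.0923 to 2.89 ± 0.112 FPKM), Ncapg (1.84 ± 0.114 to 3.45 ± 0.169 FPKM) and Smc2 (3.02 ± 0.152 to 4.56 ± 0.378 FPKM). No cohesin subunit was called. The Ncapg call ended without NAC 2 (0.63) and the Smc2 call without any library but Control 2 (0.41 to 0.51). Among the APC/C and its regulators none of 17 rose and 2 fell (median 0.00094): Anapc2 (48.3 ± 2.19 to 42.1 ± 0.235 FPKM) and Cdc27 (16.5 ± 0.2996 to 14.2 ± 0.0498 FPKM), both subunits of the complex. Both calls ended when any 1 library was left out (-0.21 to -0.16 for Anapc2 and -0.22 to -0.19 for Cdc27), and also without a trend in the variance.

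Of the regulators of the mitotic programme 1 of 13 rose and none fell (median 0.044). That share is near the background, as 6.08% of all tested genes rose and 2.72% fell. The gene that rose was Mybl2, the activating subunit that joins the same core as DREAM in cycling cells. It went from 1.36 ± 0.197 FPKM to 2.79 ± 0.156 (SD over 3 libraries, log2 fold change 0.69 ± 0.108 SE, limma adjusted p = 0.0141). Its call ended without Control 1, NAC 1, NAC 2 or NAC 3 (0.67 to 0.72). Foxm1 had means of 1.21 ± 0.192 and 2.03 ± 0.281 FPKM and did not pass (log2 fold change 0.45 ± 0.130 SE, limma adjusted p = 0.0808, picked with its value known). Among genes of mitotic entry and the G2 checkpoint none of 14 rose and 1 fell (median 0.13). This was Cdkn1a, p21, an inhibitor of cyclin-dependent kinases, at 120.4, 129.9 and 116 FPKM in Control and 69.4, 68.2 and 82.5 FPKM in NAC. All NAC values lay below all Control values (log2 fold change -0.73 ± 0.0811 SE, limma adjusted p = 0.00391), and the call held without any 1 library.

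**Figure D5:**
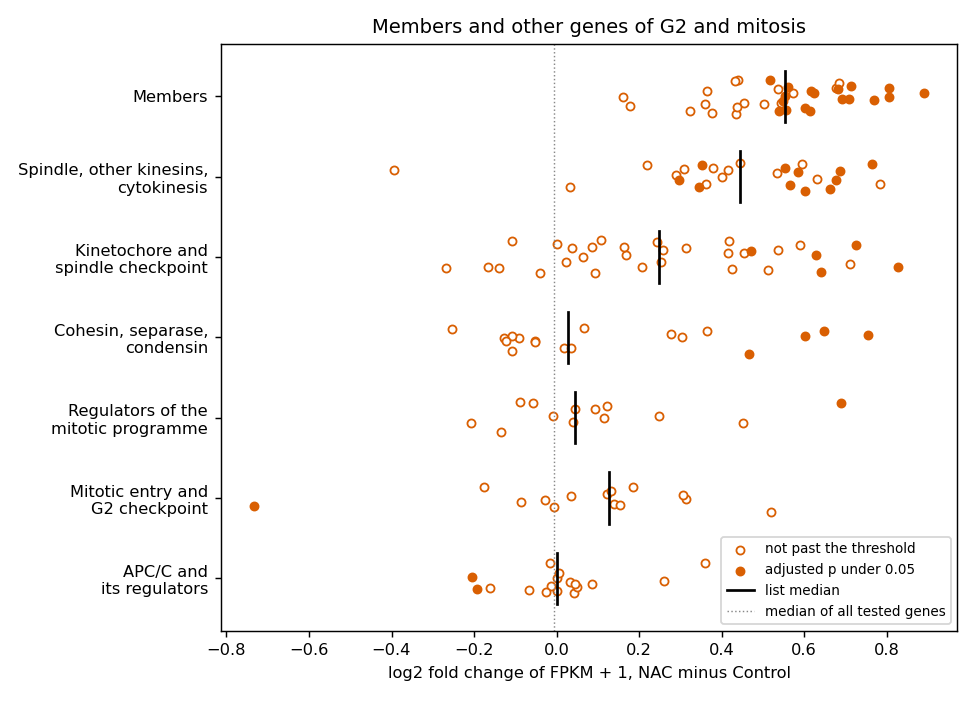
Log2 fold change of FPKM + 1 (NAC minus Control) of each tested gene, for the members and the 6 lists of other G2 and mitosis genes; filled points have an adjusted p under 0.05, black bars are list medians and the dotted line is the median of all tested genes. The members' median is 0.55, that of the spindle list 0.44, and that of the APC/C list 0.00094.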

How the data were processed

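RNA of 3 Control and 3 NAC samples of rat tendon stem/progenitor cells was sequenced from SMARTer mRNA-Seq libraries, per the labels' protocols. The authors deposited 1 table of FPKM values for 33300 genes with rat Ensembl identifiers, positions and gene lengths. The submitters' processing notes name the mouse builds GRCm38 and mm10, while the identifiers are those of rat. Aligner, counter and strand setting: not given in the sources used here. Columns N1 to N3 were taken as Control because the other 3 columns carry the NAC name, and replicate numbers follow the titles. FPKM times length came in steps of whole reads, which gave 12487215 to 14941949 reads per library.

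The 37 members found by name were read from a fit over the whole table: limma 3.58.1 in R 4.3.3 on log2(FPKM + 1), with a trend in the variance, over 12733 genes with a mean of at least 1 FPKM, two-sided, with Benjamini-Hochberg adjustment over all of them and a threshold of 0.05. The fit was also run on simulated reads with the same spread setting for every gene. Whether that setting matched the members was not tested. Alternatives were a pseudocount of 0.1, no filter, a mean of at least 5 FPKM, library totals, quantile normalization, no variance trend, limma voom on the recovered reads, the replicate number as a block, and each library left out in turn. Every member is named. From each list of other genes up to 4 called genes of lowest adjusted p are named. The members and lists were chosen with earlier results of these data known. Motifs were searched with Python 3.11.15 in RefSeq promoter windows of GRCr8.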

Additional observations from a re-analysis of the deposited data

How the results depend on the processing

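Every member kept a fold change above 0 in each of the 14 alternatives in which it was tested. The count of members called higher was 18 as reported and stayed within 1.5 times of it with a pseudocount of 0.1 (18), quantile normalization (17), library totals (20), no variance trend (20) and voom (27). In that order 6.01%, 4.45%, 3.67%, 4.31% and 8.13% of all tested genes were called higher. It was 1 with no filter, when 33300 genes entered the fit (0.706% of them called higher), and 7 of 9 tested with a mean of at least 5 FPKM (8.88% of 8783 genes). Leaving out 1 library gave 4 to 16 members, where 2.07% to 6.75% of all tested genes were called higher. The 21 other genes called higher became 3 with no filter, 6 with a mean of at least 5 FPKM and 36 with voom, and 3 to 20 when 1 library was left out. The 3 other genes called lower became 1 with no filter, 17 with library totals, 5 with voom and 1 with no variance trend, and 1 to 2 when 1 library was left out. Of all tested genes 2.72% were called lower as reported, 29.2% with library totals and 4.15% with voom. The causes of these moves were not tested. Over single named genes and settings, 496 values kept their side of the threshold, 164 lost the call and 18 gained it, and none changed direction.

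With the replicate number as a block, 10 members and 6 other genes were called higher and 1 other gene lower (3.66% and 0.864% of all tested genes). Libraries of the same number did not deviate together (correlations of 0.063, 0.059 and -0.050), so the numbers were not taken to pair the samples. Nek2 and Racgap1 rested on as few as 14 reads in a library. Whether depth decided which members passed was not tested.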

Other observations

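The promoter letters of the other G2 and mitosis genes differed between lists. The CHR letters TTTGAA were present in 18 of 29 windows of the spindle, kinesin and cytokinesis list (62.1%), 6 of 11 of the regulators (54.5%), 8 of 19 of the cohesin and condensin list (42.1%), 13 of 31 of the kinetochore list (41.9%) and 5 of 13 of the mitotic entry list (38.5%). In the list of the anaphase-promoting complex 2 of 14 windows held them (14.3%). Of the other genes called higher 14 of 19 windows held the letters (73.7%), against 12.0% of the windows of all tested genes. These shares are descriptions of windows that were matched by symbol, without a test.

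Among the markers of other cell types, 1 pericyte and smooth muscle gene, Myh11, fell with NAC and none rose (2.72% and 6.08% of all tested genes). In the tendon list 4 of 10 genes rose: Col1a1, Col1a2, Dcn and Tnc. The calls of Col1a1 and Dcn held in all 6 fits that left out a library, and those of Col1a2, Tnc and Myh11 in 1 of the 6 each. Scx, the tendon transcription factor, lay at 11.4 to 13.9 FPKM in Control and 11.2 to 12.4 FPKM in NAC, and its ranges overlapped.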
